A study of Mus musculus with 9 samples.

Results

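The fibroblast growth factor (FGF) ligands Fgf4, Fgf5, Fgf8, Fgf15 and Fgf17 and the receptors Fgfr1, Fgfr2, Fgfr3 and Fgfr4 were followed across mouse embryonic stem cells with and without β-catenin. The 9 genes were taken from a list of symbols, and all 9 were found, each with 1 array feature, among 19938 genes tested from a table of 35556 features. Null Eα cells lacked both alleles of Ctnnb1, the β-catenin gene, and stably expressed a fusion of E-cadherin with α-catenin. Null cells lacked both alleles and carried no fusion. Flox cells, the controls, had 1 allele deleted and the second allele floxed, so that all 3 groups had lost at least 1 allele. All cells were of a mixed S129S6-C57BL/6 background and were kept on gelatin in 15% serum with 1000 U/ml leukaemia inhibitory factor (LIF), and were harvested before confluence. Each group had 3 arrays, 9 in all. The labels call them biological replicates but do not say whether they were separate lines, clones or cultures, so the p-values measure only the spread between these samples, and line and genotype cannot be told apart. The promoter that drove the fusion is not given in the sources used here.

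FGF ligands bind receptor tyrosine kinases together with heparan sulfate, and the receptor passes the signal through adaptors to RAS and ERK. ERK signalling switches on ETV transcription factors and its own inhibitors of the Sprouty, Spred and dual-specificity phosphatase families. In mouse embryonic stem cells Fgf4 is the autocrine ligand that readies naive cells for lineage commitment, and Fgfr1 is its main receptor. Fgf5 marks the primed epiblast, Fgf8 and its close relative Fgf17 are ligands of the gastrulating embryo, and Fgf15 is the mouse counterpart of the endocrine human ligand FGF19 and is made by early neural tissue. Fgfr2 is best known as the FGF receptor of trophoblast and primitive endoderm.

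Fgf4 and Fgf5 gave the largest differences of the 9 genes between null and flox cells, in opposite directions, and the 250 bases before each start site are shown for that reason. They come from RefSeq on GRCm38.p6, plus strand, at chr7:144861136-144861385 for Fgf4 and chr5:98253934-98254183 for Fgf5, read 5′ to 3′ in lower case. Capitals mark matches to any of 5 motifs searched on both strands, which were the TCF/LEF motif (CTTTGAT or CTTTGAA), through which β-catenin acts on its target genes, the octamer (ATGCAAAT), the GC box (GGGCGG), the CCAAT box (CCAAT) and the TATA box (TATAAA or TATATA).
Fgf4: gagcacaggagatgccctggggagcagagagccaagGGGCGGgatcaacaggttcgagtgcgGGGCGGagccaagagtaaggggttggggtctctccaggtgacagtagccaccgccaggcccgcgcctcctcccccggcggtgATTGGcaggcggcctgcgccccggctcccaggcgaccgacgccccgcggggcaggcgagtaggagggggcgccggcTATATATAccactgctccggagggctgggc
Fgf5: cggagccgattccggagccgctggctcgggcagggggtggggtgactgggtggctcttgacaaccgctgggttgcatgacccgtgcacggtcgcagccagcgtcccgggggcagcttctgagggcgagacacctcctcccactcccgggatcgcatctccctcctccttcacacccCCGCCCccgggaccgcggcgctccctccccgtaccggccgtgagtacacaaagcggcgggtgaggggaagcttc

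The Fgf4 window held 2 GC boxes, starting 214 and 188 bases before the start site, 1 CCAAT box on the minus strand at 106, and 2 overlapping TATA matches at 30 and 28. The Fgf5 window held 1 GC box on the minus strand at 74 and no match to the other motifs. A GC box was present in 33.0% of 32536 distinct windows of the same length, a CCAAT box in 33.8% and a TATA match in 15.3%. Neither window held the TCF/LEF motif, which 7.5% of all windows held, or the octamer, which 1.6% held. Both windows were rich in G and C, at 71.2% for Fgf4 and 70.8% for Fgf5, against a median of 52.4%. The enhancer through which Oct4 and Sox2 drive Fgf4 in stem cells lies downstream of its start site, outside the window. Windows were on hand for 5 of the 9 genes, the others being Fgfr2, Fgfr3 and Fgfr4.

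Before the results, the arrays were checked. Ctnnb1 stood at 10.23, 10.13 and 10.32 on the null Eα arrays, 10.54, 10.50 and 10.47 on the null arrays and 11.13, 11.13 and 11.21 on the flox arrays, as log2 RMA values, a log2 difference from flox of -0.93 ± 0.07 in null Eα and -0.65 ± 0.07 in null cells (adjusted p = 2.66e-06 and 2.82e-05). The feature stayed bright in both lines that the labels describe as lacking both alleles. Which part of the gene it covers, and whether that part was deleted, is not given in the sources used here, so this value checks the labels only in part. Of 10 embryonic stem cell markers, 9 were called higher and 1 lower in null Eα against null cells, 1 higher and 6 lower in null Eα against flox cells, and 2 higher and 8 lower in null against flox cells. The higher count in null against flox cells was 1 without null replicate 1 or 3 or any single flox array. The lower call in null Eα against null cells was lost without null Eα replicate 1 or 2 or null replicate 1. Over all genes 13.6% were called higher and 18.1% lower in null Eα against null cells. The shares were 32.1% and 31.6% in null Eα against flox cells, and 26.5% and 28.7% in null against flox cells. Oct4 (Pou5f1) stayed bright, at 11.31 to 11.42 on null Eα, 10.75 to 10.82 on null and 11.42 to 11.47 on flox arrays. Of 14 fibroblast markers, 12 were called higher in null Eα and 11 in null cells against flox, and none was called lower. The log2 of their mean linear signal was 7.96 to 8.33 on null Eα, 9.05 to 9.31 on null and 5.52 to 5.70 on flox arrays. Meox1 and Fap of that list were no brighter on any array than olfactory receptor features. These 1023 features of genes that stem cells are not known to use served as a guide to background, and their 95th percentile was 5.33 to 5.48 on null Eα, 5.26 to 5.32 on null and 5.03 to 5.10 on flox arrays. In RNA from whole cultures, fewer cells of a type and less RNA per cell cannot be told apart. Among the null Eα arrays, replicate 3 correlated with the null arrays at 0.978 to 0.980 (Pearson r across features), and replicates 1 and 2 at 0.964 to 0.970. The middle part of the features (the interquartile range) spanned 3.21 to 3.37 log2 units on null Eα, 3.41 to 3.46 on null and 3.75 to 3.84 on flox arrays. The spread of values thus differed by group, and whether a single RMA run covered the 9 arrays is not given in the sources used here.

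Of the 9 genes, 8 differed between null and flox cells, 4 higher and 4 lower, by limma at a Benjamini-Hochberg adjusted p under 0.05. Across all genes 55.2% were called in that comparison, 26.5% higher and 28.7% lower, so a count of 8 was read against a background of more than every second gene. In null Eα against flox cells 7 of the 9 were called, 4 higher and 3 lower, against 63.7% of all genes, of which 32.1% were higher and 31.6% lower. In null Eα against null cells 5 were called, 3 higher and 2 lower, against 31.7% of all genes, 13.6% higher and 18.1% lower. Groups did not overlap for 8, 6 and 4 of the 9 genes in these comparisons, against 67.4%, 69.5% and 43.1% of all genes. Called differences of at least 2-fold were found for 3 of the 5 ligands in null against flox cells, 3 in null Eα against flox cells and 2 in null Eα against null cells, and for 0 of the 4 receptors in each, while 15.3%, 12% and 4.83% of all genes had one. The medians of the 9 log2 differences were -0.02, -0.07 and 0.28, with medians over all genes of 0.06, 0.07 and 0.05. The balance of calls over all genes depended on scaling. With each chromosome centred there were 10987 higher and 3997 lower calls in null against flox cells, 12522 and 3275 in null Eα against flox cells and 6346 and 2524 in null Eα against null cells. With each array centred on its median, null Eα against flox cells gave 4674 higher and 6987 lower calls.

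**Figure D1:**
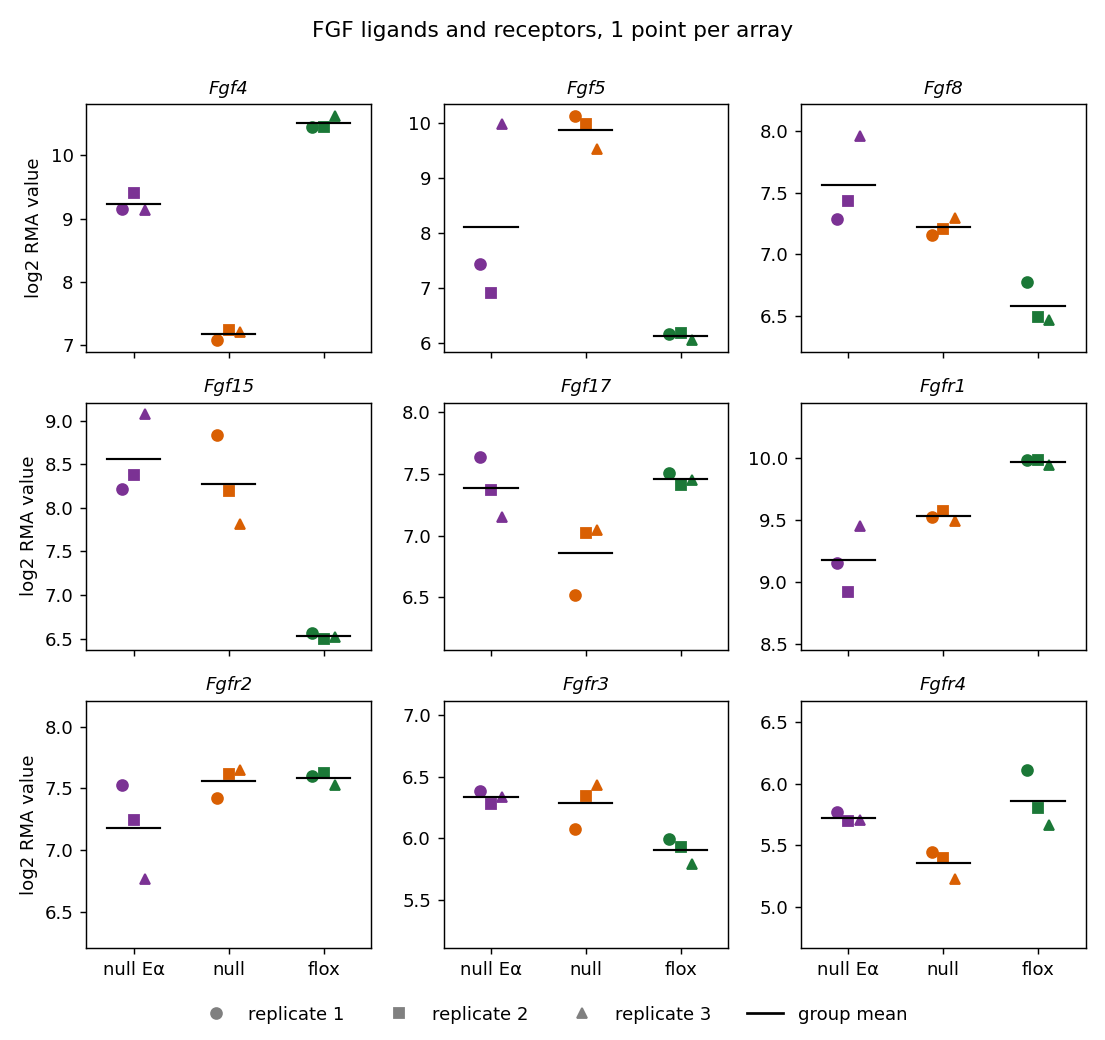
Log2 RMA values (vertical axis) of the 9 genes in null Eα, null and flox cells, with 1 point per array, a marker shape per replicate number and a line at each group mean. Vertical axes differ between panels and each spans at least 2 log2 units. Fgf4 is lowest on the 3 null arrays, and Fgf5 is high on the 3 null arrays and on null Eα replicate 3.

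Fgf4, the autocrine stem cell ligand (transcript cluster 10559367, chromosome 7), fell most in null cells and lay between null and flox in null Eα cells. Its values were 9.16, 9.40 and 9.13 on the null Eα arrays, 7.08, 7.24 and 7.21 on the null arrays and 10.45, 10.44 and 10.62 on the flox arrays. The 3 groups did not overlap, and the gap between any neighbouring groups was wider than the spread inside each. The null mean was 3.33 ± 0.09 log2 units below flox (limma standard error, n = 3 arrays per group, adjusted p = 2.37e-09), which is 9.94% of flox. Fgf4 in null Eα cells fell by 1.27 ± 0.09 against flox (adjusted p = 1.70e-06), to 41.4% of it. Null Eα cells had 4.16-fold the Fgf4 signal of null cells, a log2 difference of 2.06 ± 0.09 (adjusted p = 3.95e-07). All 3 calls held under each of 18 other settings, with differences of -3.37 to -2.90, -1.36 to -0.83 and 1.97 to 2.16. By unadjusted p Fgf4 ranked 60th, 1057th and 43rd among the 19938 genes in null against flox, null Eα against flox and null Eα against null cells.

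Fgf5, the ligand of the primed epiblast (10523490, chromosome 5), moved the other way in null cells. It read 7.44, 6.91 and 9.97 on the null Eα arrays, 10.13, 9.98 and 9.53 on the null arrays and 6.15, 6.18 and 6.04 on the flox arrays. Null and flox arrays were more than 3 log2 units apart, with null the higher, whereas the null Eα arrays were split, replicate 3 lying within the null range and replicates 1 and 2 nearer to flox. Measured as a share of the distance that separates the null mean from the flox mean, null Eα replicates 1, 2 and 3 stood 35.1%, 21.0% and 102.5% of the way to null. For Fgf4 the same arrays stood at 40.5%, 33.2% and 41.1%. Fgf5 rose by 3.75 ± 0.61 in null against flox cells, or 13.5-fold (adjusted p = 4.06e-04), and by 1.98 ± 0.61 in null Eα against flox cells (adjusted p = 0.0164). Without null Eα replicate 3 the null Eα difference against flox was 1.05 (adjusted p = 9.20e-04). Null Eα against null cells gave -1.77 ± 0.61, a call at the edge of the threshold (adjusted p = 0.0497) in groups that overlapped. That call was kept without null Eα replicate 3, at -2.70 (adjusted p = 6.38e-06), and was lost without any other single array. The values were -1.44 and -1.17 without null Eα replicates 1 and 2, -1.64, -1.72 and -1.95 without null replicates 1, 2 and 3, and -1.77 without any single flox array (adjusted p = 0.0712 to 0.0729). With the replicate number as a block it was lost as well (adjusted p = 0.0516). The same held after quantile normalization (adjusted p = 0.0619), with another variance prior (adjusted p = 0.099) and with only these groups fitted (adjusted p = 0.111). It was also lost with all features tested.

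Otx2, a homeobox factor of the primed epiblast, showed the same split among the null Eα arrays. It read 8.52, 8.47 and 9.64 on the null Eα arrays, 9.65, 10.36 and 10.18 on the null arrays and 8.77, 8.82 and 8.79 on the flox arrays. Of 10 primed epiblast markers, Fgf5 not among them, 5 were called higher and 4 lower in null against flox cells, and 3 higher and 5 lower in null Eα against null cells. Over all genes 26.5% were called higher and 28.7% lower in null against flox cells, and 13.6% and 18.1% in null Eα against null cells. The 4 lower calls of the markers became 2 without null replicate 3. In null Eα against null cells the higher count was 0 or 1 without null Eα replicate 1 or 2 or null replicate 2 or 3, and the lower count was 3 without null Eα replicate 1 or 2, null replicate 1 or 2 or any single flox array. Zic2 and Zic5, zinc finger factors on it, differed by -1.38 and -0.82 in null against flox cells (adjusted p = 0.0168 and 0.0466). In null Eα against flox cells they differed by -2.715 and -2.19 (adjusted p = 2.92e-04 and 1.87e-04). Zic2 read 7.81, 7.23 and 9.40 on null Eα, 9.54, 9.54 and 9.37 on null and 10.93, 10.83 and 10.83 on flox arrays. For Zic2, unlike Otx2, null Eα replicates 1 and 2 thus lay farthest from flox.

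Fgf15 (10559373, chromosome 7) was higher in both lines without β-catenin. Its values were 8.21, 8.38 and 9.08 in null Eα cells, 8.83, 8.19 and 7.81 in null cells and 6.56, 6.50 and 6.52 in flox cells. The flox arrays lay within 0.06 of each other and below all 6 others, and null Eα and null overlapped. Against flox, null Eα cells had 2.03 ± 0.26 more Fgf15 on the log2 scale (4.08-fold, adjusted p = 7.90e-05) and null cells 1.75 ± 0.26 more (3.37-fold, adjusted p = 2.03e-04). Null Eα against null cells gave 0.28, with a 95% interval of -0.30 to 0.85 (adjusted p = 0.431). Of 8 measured early neural markers, tissue in which Fgf15 is made, 3 were called higher and 3 lower in null against flox cells. Over all genes 26.5% were called higher and 28.7% lower in that comparison.

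Fgf8 (10468070, chromosome 19), a ligand of the primitive streak, followed the same order at a smaller size. It read 7.29, 7.43 and 7.96 on null Eα, 7.16, 7.21 and 7.29 on null and 6.78, 6.49 and 6.47 on flox arrays. Both lines without β-catenin lay above flox on every array, and overlapped each other. Null Eα cells were 0.98 ± 0.16 above flox (adjusted p = 3.89e-04), and null cells 0.64 ± 0.16 above (adjusted p = 0.00566). The difference of 0.34 between null Eα and null cells was not called (95% interval -0.01 to 0.69, adjusted p = 0.124). It was called with each chromosome centred, at 0.47.

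Fgf17 (10421436, chromosome 14), the close relative of Fgf8, did not share that order. It stood at 7.63, 7.37 and 7.15 on null Eα, 6.52, 7.02 and 7.04 on null and 7.51, 7.41 and 7.45 on flox arrays. The null arrays were the lowest, and null Eα spanned the flox values. Fgf17 fell by 0.60 ± 0.15 in null against flox cells (adjusted p = 0.00723), a call lost with each chromosome centred, at -0.37 (adjusted p = 0.0689). Null Eα against flox cells gave -0.07, with a 95% interval of -0.41 to 0.27 (adjusted p = 0.692). Null Eα exceeded null by 0.53 ± 0.15 (adjusted p = 0.0252). That call was lost without null Eα replicate 1 (0.40) or 2 (0.53) and without null replicate 1 (0.35). It was also lost with only these groups fitted (adjusted p = 0.0677). Of 9 measured primitive streak markers, 3 were called higher and 2 lower in null against flox cells, and 5 higher and 1 lower in null Eα against flox cells. The count of 2 became 1 without null Eα replicate 2, null replicate 1 or 2 or any single flox array. Over all genes 26.5% were called higher and 28.7% lower in null against flox cells, and 32.1% and 31.6% in null Eα against flox cells.

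Fgfr1 (10570982, chromosome 8), the main FGF receptor of stem cells, fell in null Eα and null cells alike in direction. Its values were 9.15, 8.91 and 9.45 on null Eα, 9.53, 9.57 and 9.49 on null and 9.99, 9.99 and 9.94 on flox arrays. The groups did not overlap, with flox the highest and null Eα the lowest, although null Eα replicate 3 came within 0.04 of the lowest null array. In null Eα cells Fgfr1 was at 57.6% of flox, a fall of 0.80 ± 0.12 log2 units (adjusted p = 2.11e-04), and in null cells at 73.7%, a fall of 0.44 ± 0.12 (adjusted p = 0.00858). The 559 brighter genes of chromosome 8 (those above the median of all genes in mean value) shifted as well, with median differences of -0.68 in null Eα and -0.54 in null cells, where the 9969 brighter genes of all chromosomes had -0.29 and -0.16. With each chromosome centred the Fgfr1 difference was 0.03 in null Eα cells and 0.24 in null cells, neither called (adjusted p = 0.843 and 0.0658), and the null difference was also lost after quantile normalization, at -0.26. Null Eα against null cells gave -0.36 ± 0.12 (adjusted p = 0.0405). The call was lost after quantile normalization (-0.24) and with each chromosome centred (-0.215, adjusted p = 0.127). It was also lost with only these groups fitted and with all features tested. This call was kept without null Eα replicate 3 and was lost without any other single array, with values of -0.35 and -0.23 without null Eα replicates 1 and 2, -0.36, -0.33 and -0.38 without null replicates 1, 2 and 3, and -0.36 without any single flox array.

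Fgfr2 (10568436, chromosome 7) showed the least difference between null and flox cells. It read 7.53, 7.24 and 6.77 on null Eα, 7.42, 7.62 and 7.65 on null and 7.60, 7.62 and 7.53 on flox arrays. Null and flox values overlapped, and null Eα replicate 3 lay below all other arrays. The null difference was -0.02 with a 95% interval of -0.38 to 0.34 (adjusted p = 0.921), and it was 0.41 and called with each chromosome centred. The 775 brighter genes of chromosome 7 had median differences of -0.32 in null Eα and -0.28 in null cells. Null Eα against flox cells gave -0.41 ± 0.16 (adjusted p = 0.0469), called by a narrow margin. Among fits that left out 1 array only the one without null Eα replicate 1 kept that call, and the value was -0.44 without null Eα replicate 2, -0.20 without null Eα replicate 3, -0.41 without any single null array and -0.40, -0.38 and -0.43 without flox replicates 1, 2 and 3. The call was also lost after quantile normalization (-0.18), with only these groups fitted and with all features tested. With each chromosome centred the difference was 0.04. Null Eα against null cells gave -0.38 (adjusted p = 0.0931), called without null Eα replicate 1, at -0.56. Of 9 trophoblast markers, 2 were called higher and 4 lower in null against flox cells, and of 10 primitive endoderm markers 4 were called higher and 3 lower. The 2 higher trophoblast calls became 1 without null replicate 1 or any single flox array. Over all genes 26.5% were called higher and 28.7% lower in null against flox cells.

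Fgfr3 and Fgfr4 were the dimmest of the members relative to other genes on the flox arrays, at the 42.8th and 42.2nd percentile of all genes. Fgfr3 (10521111, chromosome 5) stood at 6.38, 6.28 and 6.33 on null Eα, 6.08, 6.34 and 6.43 on null and 5.99, 5.93 and 5.79 on flox arrays. Flox was the lowest group without overlap, and null Eα lay inside the null range. Above flox, Fgfr3 gained 0.43 ± 0.10 in null Eα (adjusted p = 0.00396) and 0.38 ± 0.10 in null (adjusted p = 0.00799), and the lines differed by 0.05 (95% interval -0.18 to 0.27). The 95th percentile of olfactory receptor features rose in the same order, from 5.03 to 5.10 on flox to 5.26 to 5.32 on null and 5.33 to 5.48 on null Eα arrays. The part of this rise in the Fgfr3 differences was not tested. Fgfr4 (10405380, chromosome 13) stood at 5.77, 5.70 and 5.71 on null Eα, 5.44, 5.40 and 5.23 on null and 6.11, 5.80 and 5.67 on flox arrays. Null was the lowest group without overlap, and null Eα lay inside the flox range. Fgfr4 fell by 0.50 ± 0.11 in null against flox cells (adjusted p = 0.00308), and 1 of its 3 null arrays was no brighter than the 95th percentile of olfactory receptor features. Null Eα cells lay 0.37 ± 0.11 above null (adjusted p = 0.0294). The call disappeared when null Eα replicate 1 (0.34) or 2 (0.38) was left out, without null replicate 2 (0.39) or 3 (0.30) and after array centring or quantile normalization. It was also lost with all features tested. The 1 feature per receptor gene does not separate the IIIb and IIIc splice forms, which differ in the ligands they bind.

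**Figure D2:**
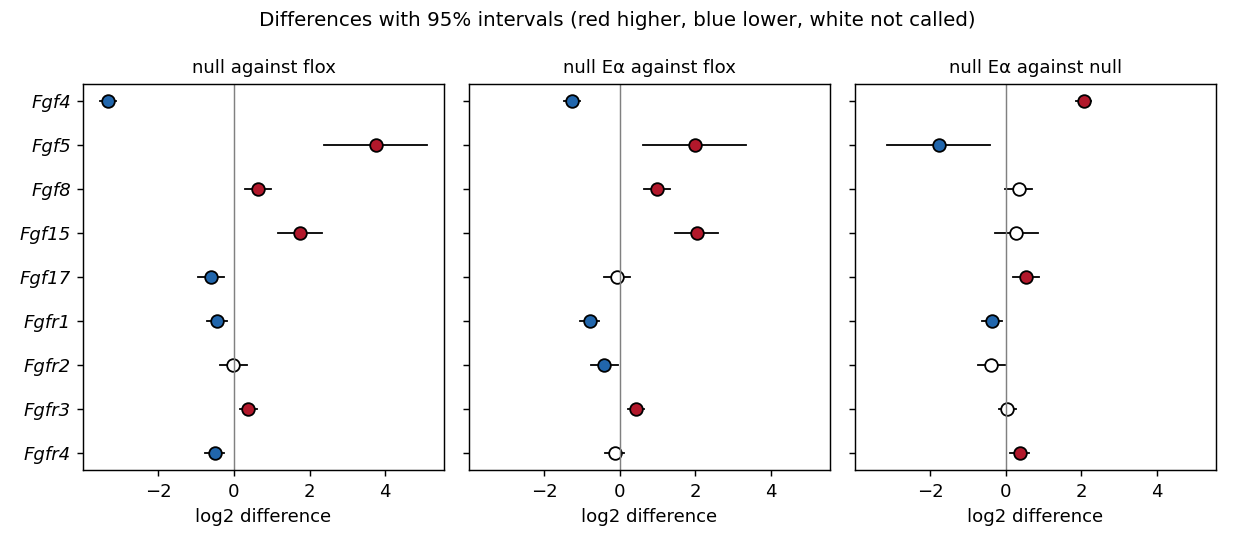
Log2 differences of the 9 genes (points) with limma's 95% intervals (lines) in null against flox, null Eα against flox and null Eα against null cells. Red points were called higher, blue points lower and white points were not called. Fgf4, Fgf5 and Fgf15 lie farthest from 0 in null against flox cells, and the 4 receptors lie within 1 log2 unit of 0 in all comparisons.

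Besides the members, 17 other FGF family genes were measured. Of these, 12 were called higher and 2 lower in null Eα against flox cells (median 0.46), against 32.1% and 31.6% of all genes. In null against flox cells 11 were called higher and 1 lower (median 0.35), where 26.5% and 28.7% of all genes were. In null Eα against null cells 2 were called higher and 1 lower (median 0.11). The higher count there was 6 without null Eα replicate 3 and 0 or 1 without any other single array. The 2 lower calls in null Eα against flox cells became 0 without null Eα replicate 2 and 1 without any other single array. Most were dim, with Fgf6, Fgf12, Fgf14 and Fgf16 within the olfactory receptor range on every array. The fit without dim genes kept genes at or above the median in mean value, and only 3 of the 17 were tested in it. All 3 were called higher against flox in each line. Over all genes of that fit 2719 of 9969 were called higher in null and 1918 in null Eα cells. The median of the olfactory receptor features was also higher in both lines, at 3.66 to 3.74 on null Eα, 3.59 to 3.61 on null and 3.48 to 3.50 on flox arrays. Their 95th percentile, nearer to the level of these genes, was 5.33 to 5.48, 5.26 to 5.32 and 5.03 to 5.10. The part of this background rise in the counts of FGF family genes was not tested. Fgf7, the keratinocyte growth factor that mesenchymal cells make for epithelia, had by far the largest rise. It read 8.79, 8.44 and 8.23 on null Eα, 8.54, 9.04 and 8.54 on null and 4.15, 4.11 and 4.34 on flox arrays. The flox values lay in the olfactory receptor range, so Fgf7 was at least 10.8-fold higher in null Eα and at least 12.5-fold higher in null than in flox cells, taking the 95th percentile of those features as the floor (adjusted p = 4.34e-08 and 1.14e-08). The fibroblast markers were brighter against flox in the same arrays, as given above. In null Eα against null cells the Fgf7 difference of -0.22 was not called (adjusted p = 0.337). Of the 14 fibroblast markers, 7 were called lower and 1 higher in that comparison, against 18.1% and 13.6% of all genes. The 1 higher call was lost without null Eα replicate 3. The part of these markers in the rise of Fgf7 was not tested. Fgf2, the basic FGF, gained 1.03 ± 0.15 in null Eα and 1.27 ± 0.15 in null (adjusted p = 1.96e-04 and 3.72e-05), with 1 of its 3 flox arrays above the 95th percentile of olfactory receptor features, so that its flox level is poorly measured. Fgf9 rose by 0.86 ± 0.09 and 0.58 ± 0.09 in the same comparisons (adjusted p = 2.65e-05 and 4.20e-04).

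Genes of ligand presentation moved in both directions. Over all genes 26.5% were called higher and 28.7% lower in null against flox cells. The shares were 32.1% and 31.6% in null Eα against flox cells, and 13.6% and 18.1% in null Eα against null cells. Of 11 FGF coreceptors and binding proteins, 5 were called higher and 1 lower in null against flox cells (median 0.26), 4 higher and 2 lower in null Eα against flox cells (median 0.09), and 2 higher and 4 lower in null Eα against null cells (median -0.02). The 2 genes called higher in null Eα against null cells, Kl and Klb, lay within the olfactory receptor range on every array. The higher count in null Eα against null cells was 0 or 1 without null Eα replicate 1 or 2 or any single null array. The 1 lower call in null against flox cells became 2 without null Eα replicate 2 or 3 or null replicate 1 or 2, and the 2 in null Eα against flox cells became 1 without flox replicate 1. Fgfbp1, a secreted carrier that frees FGFs from the matrix, read 4.97, 4.49 and 4.84 on null Eα, 6.43, 6.66 and 7.58 on null and 5.01, 5.08 and 4.93 on flox arrays. It stood out on the null arrays alone, with a rise of 1.88 ± 0.25 in null against flox cells (adjusted p = 9.20e-05), where 1 of 3 flox arrays was above the olfactory receptor range, and a null Eα level at least 2.75-fold below null, since all null Eα values lay in the olfactory receptor range (adjusted p = 1.76e-04). Flrt2, a membrane protein of a family that binds FGF receptors, exceeded its flox level by 0.62 ± 0.12 in null Eα and 1.54 ± 0.12 in null (adjusted p = 0.00127 and 1.81e-06). Of 18 measured genes of heparan sulfate and its proteoglycans, 7 were called higher and 7 lower in null against flox cells (median -0.10), 7 and 8 in null Eα against flox cells (median 0.01), and 3 and 7 in null Eα against null cells (median -0.20), where the 3 became 5 without null replicate 1. Ext1, which polymerizes heparan sulfate, exceeded flox by 0.96 ± 0.09 in null Eα and 1.54 ± 0.09 in null (adjusted p = 1.03e-05 and 2.59e-07). The glypican Gpc4 rose by 1.91 ± 0.19 in null against flox cells, and null Eα fell short of null with a log2 difference of -1.24 ± 0.19 (adjusted p = 1.00e-05 and 8.04e-04). The sulfatase Sulf2, which trims heparan sulfate, fell by 0.74 ± 0.09 in null Eα (adjusted p = 3.85e-05) and fell by 0.94 ± 0.09 in null (adjusted p = 5.23e-06), both relative to flox. Sulf1, the other sulfatase on the list, went the other way. It rose by 1.29 ± 0.17 in null against flox cells (adjusted p = 1.05e-04), and its rise of 0.42 in null Eα was not called (adjusted p = 0.0566).

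Downstream of the receptors, Gab1 and Spry4 followed the order of Fgf4, with null lowest and null Eα between null and flox. Gab1, a docking protein of receptor tyrosine kinases, read 10.41, 10.30 and 10.02 on null Eα, 7.89, 8.18 and 8.92 on null and 10.84, 10.86 and 10.94 on flox arrays. It fell by 2.55 ± 0.22 in null against flox cells (adjusted p = 3.47e-06) and null Eα exceeded null by 1.91 ± 0.22 (adjusted p = 1.43e-04). Against flox the null Eα difference was -0.64 (adjusted p = 0.0256), and it no longer passed after quantile normalization (-0.45, adjusted p = 0.102), when null Eα replicate 3 was left out (-0.53) or flox replicate 1, 2 or 3 (-0.66, -0.65 and -0.61). Gab1 lies on chromosome 8, and that difference turned to 0.18 with each chromosome centred. Of 11 measured signal transducers, 4 were called higher and 4 lower in null against flox cells (median -0.14), 1 and 4 in null Eα against flox cells (median -0.19), and 4 and 5 in null Eα against null cells (median -0.15), against the shares of all genes given above. The higher count in null against flox cells was 2 without null replicate 1 or 2 or flox replicate 1 or 3. In null Eα against flox cells the lower count was 2 without any single flox array and 3 without any other array, and the 1 higher call was lost without null Eα replicate 2 or 3 or flox replicate 1 or 2. Shc1, an adaptor, rose by 0.78 ± 0.09 in null against flox cells, and Sos1, the exchange factor that loads RAS, fell by 0.62 ± 0.09 (adjusted p = 3.00e-05 and 1.86e-04).

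Spry4, a Sprouty inhibitor induced by ERK signalling, read 9.33, 9.36 and 8.59 on null Eα, 7.76, 6.85 and 6.69 on null and 10.11, 10.15 and 10.19 on flox arrays. The 3 groups did not overlap. Spry4 fell by 3.05 ± 0.27 in null against flox cells (adjusted p = 4.85e-06) and null Eα exceeded null by 1.99 ± 0.27 (adjusted p = 4.39e-04). Etv4 and Etv5, transcription factors that respond to FGF, fell in both lines. Etv5 lay at 9.92, 9.92 and 9.95 on null Eα, 9.83, 9.70 and 9.55 on null and 10.62, 10.59 and 10.48 on flox arrays, and Etv4 fell by 1.29 ± 0.15 in null against flox cells (adjusted p = 2.73e-05). Spred2, an inhibitor of RAS signalling, fell by 1.31 ± 0.09 in null Eα (adjusted p = 1.21e-06) and fell by 1.26 ± 0.09 in null (adjusted p = 1.15e-06), both relative to flox. Etv4 and Spred2 lie on chromosome 11, whose 876 brighter genes had median differences from flox of -0.625 in null Eα and -0.19 in null cells. The brighter genes of all chromosomes had -0.29 and -0.16. Other genes of the same lists rose. Dusp6, the phosphatase of ERK, read 9.74, 9.37 and 9.90 on null Eα, 9.95, 10.19 and 10.10 on null and 9.31, 9.44 and 9.42 on flox arrays, a rise of 0.69 ± 0.13 in null against flox cells (adjusted p = 9.54e-04). Fos, an immediate early gene, rose by 3.15 ± 0.29 in null cells against flox (adjusted p = 6.70e-06), and the null Eα difference from null was -1.44 ± 0.29 (adjusted p = 0.00439).

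As lists, neither the feedback inhibitors nor the response factors moved one way in null against flox cells. The calls of the feedback inhibitors in null Eα against flox cells were mostly lower. Over all genes 26.5% were called higher and 28.7% lower in null against flox cells. The shares were 32.1% and 31.6% in null Eα against flox cells, and 13.6% and 18.1% in null Eα against null cells. Of 14 feedback inhibitors, 5 were called higher and 4 lower in null against flox cells (median 0.08), 1 and 8 in null Eα against flox cells (median -0.26), and 2 and 5 in null Eα against null cells (median -0.40). Their count of lower calls in null Eα against flox cells was 5 without null Eα replicate 1, flox replicate 1 or flox replicate 3, and 2 with each chromosome centred. Their count of higher calls in null cells was 3 without null replicate 1 or 3 and 2 without any 1 flox array. Of 12 response transcription factors, 6 were called higher and 3 lower in null against flox cells (median 0.28), 5 and 5 in null Eα against flox cells (median 0.24), and 2 and 3 in null Eα against null cells (median 0.07). The 5 lower calls in null Eα against flox cells became 3 without flox replicate 1 or 3.

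**Figure D3:**
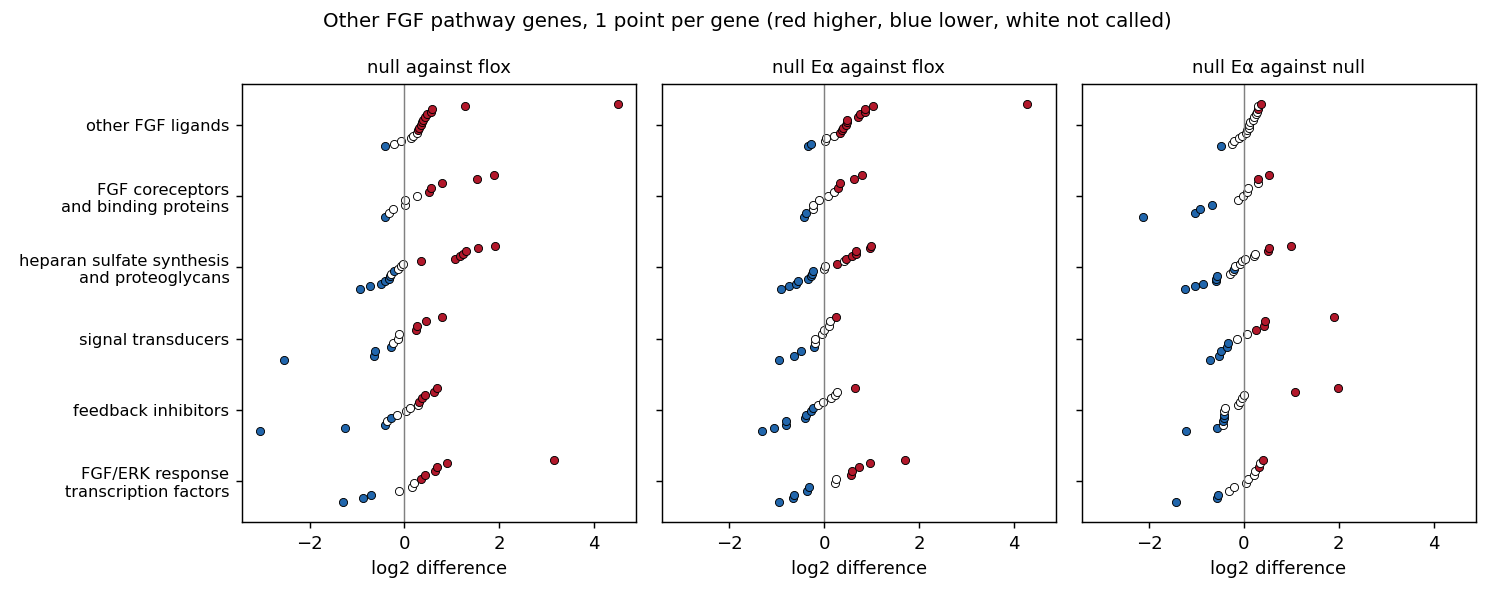
Log2 differences (horizontal axis) of other genes of the FGF pathway, 1 point per gene and 1 row of points per list, in null against flox, null Eα against flox and null Eα against null cells. Red points were called higher, blue points lower and white points were not called. Fgf7 is the rightmost of the other FGF family genes (row of other FGF ligands) against flox in both lines. Spry4 (feedback inhibitors) and Gab1 (signal transducers) lie far left in null against flox cells and far right in null Eα against null cells.

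The genes most like each member in pattern were found by Pearson correlation over the 9 arrays, among 3479 genes with an SD of at least 0.5. With 3 groups of arrays such a correlation mostly reads the 3 group means, and the values are given as a description. Fgf4 was closest to Pecam1, an adhesion molecule of naive stem cells (r = 0.999), Zyg11a (0.998) and Septin1, a cytoskeletal GTPase (0.997). Pecam1 read 7.91, 8.02 and 7.91 on null Eα, 5.20, 5.35 and 5.44 on null and 9.46, 9.56 and 9.53 on flox arrays, in the order of Fgf4. Fgf5 was closest to Efnb2, an ephrin ligand (r = 0.993), Pphln1 (0.992) and Zfp608 (0.992). Efnb2 read 7.58, 7.32 and 8.59 on null Eα, 8.80, 8.56 and 8.53 on null and 6.87, 6.89 and 6.64 on flox arrays, with null Eα replicate 3 again among the null values. Fgfr1 was closest to Zic2 (0.992), Abi2 (0.991) and Mapk11 (0.990). The closest genes were Zfp365 (0.981), Eid3 and Pros1 for Fgf15, Mmp12 (0.936), Akap5 and Cox7a2l for Fgf8, Wdr34 (0.929), Ap1m2 and Amt for Fgf17, Ndn (0.883), Pvr and Rad50 for Fgfr2, Tnnc1 (0.948), Plb1 and Cfap43 for Fgfr3, and Rcor2 (0.913), Pik3cd and Foxr1 for Fgfr4.

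**Figure D4:**
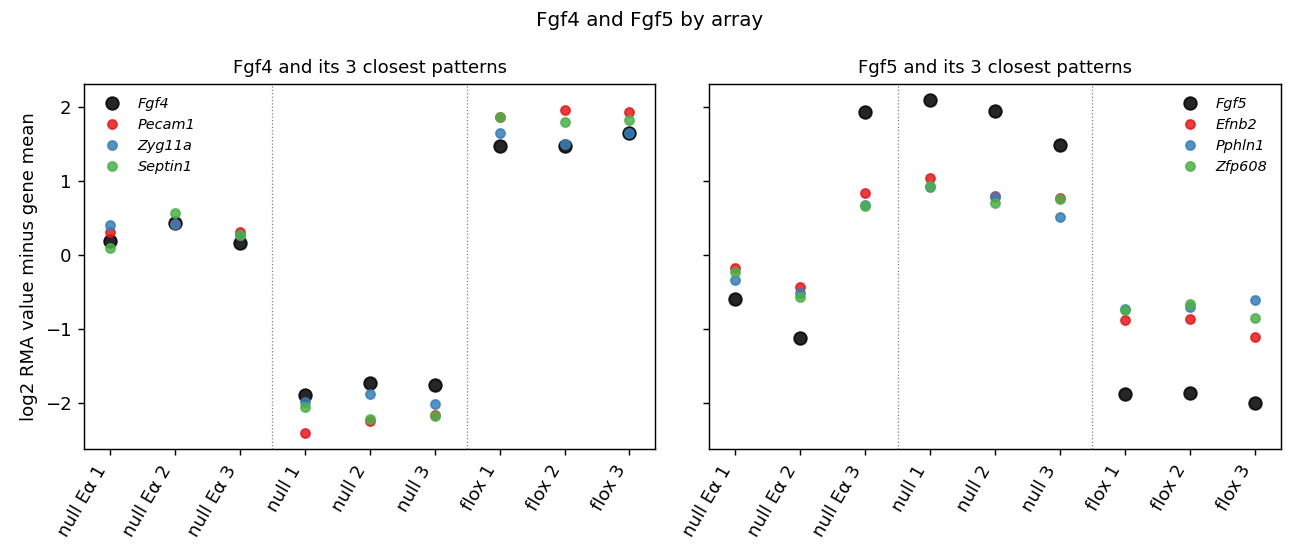
Log2 RMA value of each gene minus its mean over the 9 arrays (vertical axis) for Fgf4 and Fgf5 (large black points) and the 3 genes closest to each (coloured points), by array, with dotted lines between the null Eα, null and flox groups. Null Eα replicate 3 lies beside replicates 1 and 2 for Fgf4 and with the null arrays for Fgf5.

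Fgf4 and Fgf15 are neighbours on chromosome 7, and in null cells they moved in opposite directions, by -3.33 and 1.75. In the RefSeq gene order the protein-coding genes run Ano1, Fgf3, Fgf4, Fgf15, LTO1 and Ccnd1. Fgf3, a further FGF ligand, read 5.96, 6.14 and 5.74 on null Eα, 5.80, 5.72 and 5.72 on null and 5.57, 5.72 and 5.38 on flox arrays, with differences of 0.39 in null Eα (adjusted p = 0.0140) and 0.19 in null cells (adjusted p = 0.189) against flox. LTO1 on the other side of Fgf15 gained 0.58 ± 0.09 in null Eα and 0.83 ± 0.09 in null (adjusted p = 3.09e-04 and 2.23e-05). Ccnd1, the G1 cyclin D1 and a known target of β-catenin, differed by 0.24 in null Eα and 0.09 in null cells (adjusted p = 0.157 and 0.627). Among these genes a fall against flox was called at Fgf4 alone. Ano1 read 4.76, 4.85 and 4.91 on flox arrays, within the olfactory receptor range, and Fgf3 lay little above that range. Neither could show much of a fall, and the cause of the Fgf4 difference was not tested.

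**Figure D5:**
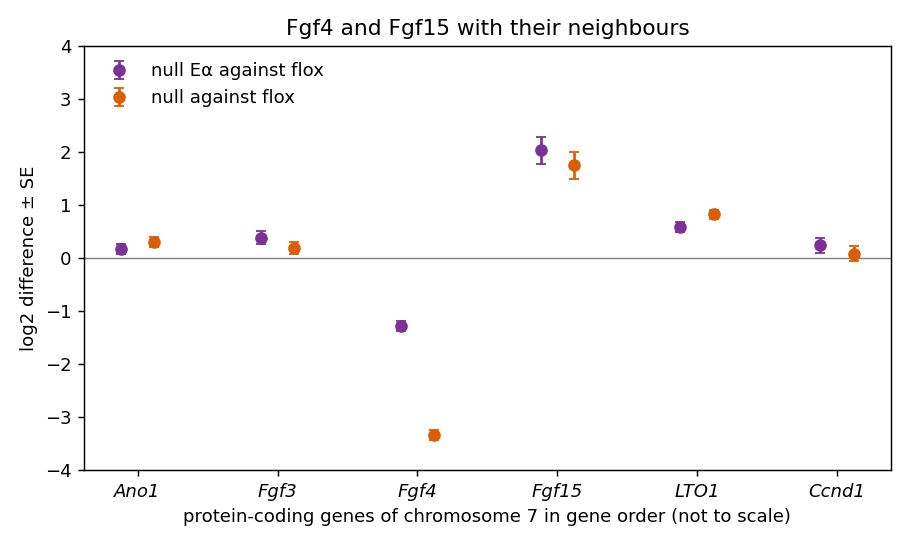
Log2 differences against flox (points, with limma's standard error) of 6 protein-coding genes of chromosome 7 in gene order, for null Eα and null cells. Fgf4 lies below 0 and Fgf15 above 0 in both lines, and Ano1, Fgf3, LTO1 and Ccnd1 lie between 0 and 1.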

How the data were processed

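RNA of 9 samples was labelled with biotin by an Affymetrix whole-transcript assay, per the labels' protocols. The authors deposited log2 RMA values, 1 per feature and array, from 2.02 to 13.92. RMA (no version given) is named in the submitters' processing notes, and no detection calls or scan dates were used here. Features with 1 gene symbol (21789 of 35556) were kept, and the feature with the highest mean stood for a gene. Chromosomes came from RefSeq (GRCm38.p6). A linear model over all genes and arrays was fitted by limma 3.58.1 (R 4.3.3), a mean per group, with Benjamini-Hochberg adjustment over the 19938 genes for each comparison. Errors after ± are standard errors. The fit was also run on simulated data with independent noise. Those data had no difference in spread between groups and no chromosome-wide shift, so they do not test how the fit handles either. Precision is limited by 3 arrays per group.

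The members and lists were chosen with earlier results of these data known. Genes named were the members, Ctnnb1, the 3 genes of each pathway list with the smallest p per comparison and the 3 genes closest in pattern to each member. Otx2, Zic5, Pou5f1, Sulf1, Meox1, Fap, the other list genes in the olfactory receptor range and the neighbours of Fgf4 were named after their values were seen. Some genes of the lists are not reported here, and counts are over the members measured. Same-numbered arrays of different groups deviated together with r from -0.04 to 0.26, and differently numbered arrays with r from -0.20 to 0.14. Null Eα replicate 3 had 0.26 with null replicate 3 and 0.21 with flox replicate 3. With the other null and flox arrays it had -0.19 to -0.06. The labels name no pairing, so replicate numbers were not taken as pairs in the main fit. Other settings were array centring, quantile normalization, chromosome centring, dim genes left out, another variance prior, only the groups compared, mean of features, all features, a replicate block and leaving out each array. Chromosome centring made the median value of each chromosome's brighter genes equal on all arrays. That median value is not the median of the genes' differences, so centred values do not move by the median differences printed for a chromosome. Figures used matplotlib 3.10.9.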

Additional observations from a re-analysis of the deposited data

How the results depend on the processing

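Fgf4, Fgf15, Fgf8 and Fgf5 kept direction and call against flox under all 18 alternatives, and so did Fgfr3 and the null difference of Fgfr4 under the 17 that could be computed, being too dim for the fit without dim genes. Of 480 member values, 418 kept their direction and side of the threshold, 7 changed sign without being called either way, 49 lost the call, 2 gained one and 4 changed sign with a call before or after, all 4 with each chromosome centred (Fgfr1 0.24 in null and 0.025 in null Eα, Fgfr2 0.41 and 0.043, against flox). The centred scale also lifts most genes, since brighter genes as a whole were lower in both lines. The members called in null Eα against null cells, 5 as reported, were 2 after quantile normalization, with only those groups fitted and with all features tested, and 1 to 5 when 1 array was left out. They were 8 throughout in null against flox and 6 to 7 in null Eα against flox cells when 1 array was left out. The calls over all genes were 7288 and 7169 of 9969 with dim genes left out, and 17661 and 19938 of 35556 with all features tested, in null and null Eα against flox cells. In null Eα against null cells, leaving out 1 array gave 4726 to 7859. With the replicate number as a block, 8, 7 and 4 members and 11298, 12935 and 6602 genes were called. Of the 9 arrays, 4 deviated most like their own number in both other groups. The settings were applied to the pathway genes after the data were seen. Among them 21 of 1812 values changed sign, 14 of them without being called either way. The other 7 were all in comparisons of null Eα cells. Against flox with each chromosome centred these were Klf10 (0.07), Fgf13 (0.069), Gab1 (0.18) and Ptpn11 (0.20), and after quantile normalization Klf10 (0.011) and Ptpn11 (0.11). Against null it was Spred2 with each chromosome centred (0.37). Of 1404 list counts 236 moved by over 1.5 times, many of them counts under 5. Signal over background was judged only from olfactory receptor features. The cause of these changes was not tested.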
